A study of Mus musculus with 9 samples.

Results

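The arrays compared here came from mouse embryonic fibroblasts in which either heat shock factor 1 (HSF1) or replication protein A1 (RPA1) was targeted by a short hairpin RNA (shRNA), and the 2 knockdowns were set against each other directly. All cells were an immortalized fibroblast line of ICR background, grown at 37 degrees in medium with 10% serum. They were infected for 2 h with an adenovirus (1e8 pfu per ml) that expressed the shRNA, and cultured for a further 70 h before RNA was taken. There were 3 HSF1 shRNA arrays and 3 RPA1 shRNA arrays among the 9 arrays of the study. The other 3 arrays, from cells infected with a control shRNA virus, stayed out of the direct test and were used to show on which side of the control level each group stood. Every group, control included, carried an adenovirus and an shRNA, and no array was from uninfected or heat-shocked cells. Whether a group's arrays stand for separate cultures is not in the labels, so p-values measure only the spread between these samples, which may be technical.

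HSF1 is the transcription factor that binds heat shock elements and drives chaperone genes when proteins misfold, and it also acts at some promoters in unstressed cells. RPA1 is the largest subunit of replication protein A, the trimer that coats single-stranded DNA in replication and repair and, when exposed DNA accumulates, recruits the ATR checkpoint kinase. The study asked about a complex of both proteins at target genes, and a direct comparison separates what differs between their knockdowns from what the pair have in common. Several gene programmes described here have a known switch. After DNA damage p53 activates growth arrest and repair genes, and SREBP factors activate sterol and lipid synthesis when membrane cholesterol is low. Serum response factor activates contractile and immediate early genes.

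Values are log2 signals of probe sets, 1 row per gene for 19938 genes, and a difference of 1 on this scale is a doubling. Differences are HSF1 shRNA minus RPA1 shRNA throughout, so a positive value means a higher level with HSF1 shRNA. A gene was called when limma's adjusted p was under 0.05, and n is 3 arrays per group. Array medians lay between 8.35 and 8.46. The Rpa1 signal was 11.35, 11.33 and 11.30 with HSF1 shRNA, 9.42, 9.34 and 9.40 with RPA1 shRNA and 11.40, 11.42 and 11.41 with control shRNA. All 3 RPA1 shRNA arrays were thus low for the targeted gene, with a difference of 1.94 ± 0.05 (SE, adjusted p = 4.84e-05). Hsf1 itself was not analysed here, so the depth of its knockdown is not shown.

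The third RPA1 shRNA array stood apart. Its mean correlation with the other 2 RPA1 shRNA arrays was 0.994, the same as with the HSF1 shRNA arrays (0.994), while the other 5 arrays correlated at 0.996 to 0.998 within their group and at 0.988 to 0.991 with the arrays of the other knockdown. Over the 341 genes at least 2-fold apart between the HSF1 shRNA arrays and the other 2 RPA1 shRNA arrays, its difference was 0.483 times theirs. Its Rpa1 signal was as low as in the other 2. Leaving it out raised the called genes from 3296 to 5670, whereas leaving out any other array lowered them to between 930 and 1553, so list counts are also given without it, and as the range over the fits without 1 of the other 5. All 3296 called genes kept their sign in each of these 6 fits, and 772 stayed called in all 6. The sign was nearly fixed in advance, because each fit reuses arrays on which the genes were called. Genes whose call was lost without a named array are marked as such; the other called genes named stayed called in all 6 fits.

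Of the 19938 genes, 3296 were called (16.5%), 2001 of them higher with HSF1 shRNA (10.0%) and 1295 higher with RPA1 shRNA (6.50%). With the arrays centred on their medians the split was 1804 to 1968, so the share of calls higher with HSF1 shRNA moved from 60.7% to 47.8%. At 1.5-fold or more 818 were called (4.10%), 460 higher with HSF1 shRNA (2.31%) and 358 higher with RPA1 shRNA (1.80%). The larger side of this split turned under each scaling, with 401 to 470 after median centring, 407 to 440 after quantile scaling and 405 to 431 after cyclic loess. The median difference over all genes was 0.02. Against the control arrays, which both comparisons share, 3210 genes were called with HSF1 shRNA (16.1%) and 5998 with RPA1 shRNA (30.1%). The 3 and 3 arrays did not overlap for 6884 genes (34.5%), and with 3 against 3 an exact permutation test of a single gene cannot go below 0.1. The plot of level against difference shows the named genes among all others.

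**Figure D1:**
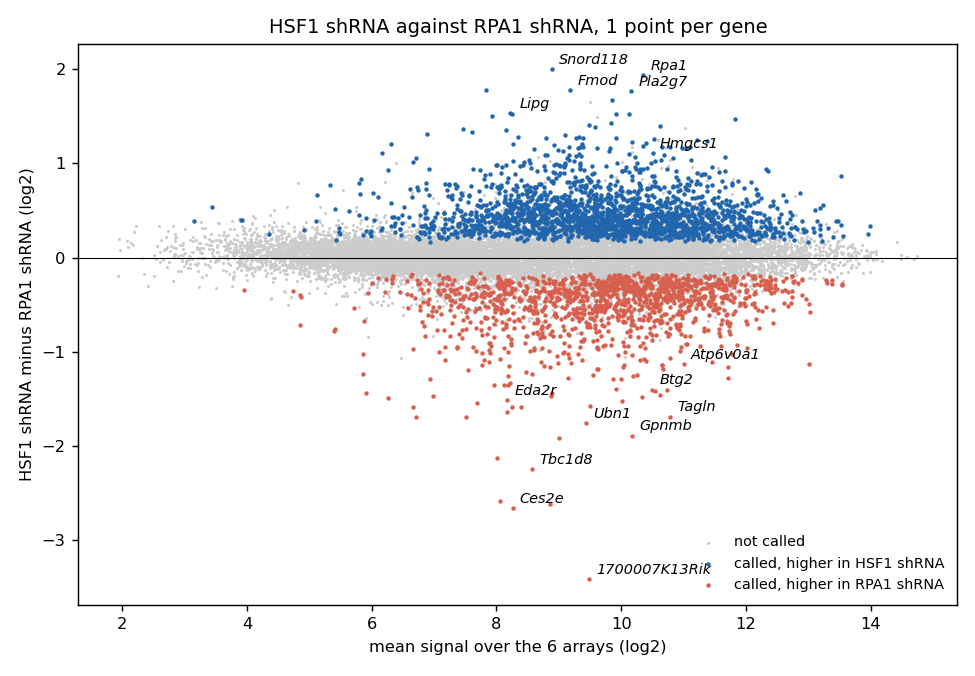
Each point is a gene, with its mean signal over the 6 knockdown arrays (log2) on the horizontal axis and the difference HSF1 shRNA minus RPA1 shRNA (log2) on the vertical axis. Blue points are the 2001 genes called higher with HSF1 shRNA, orange points the 1295 called higher with RPA1 shRNA, and the orange points reach further, to -3.42 for 1700007K13Rik.

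The called genes were sorted by where both knockdowns stood against the control mean. Of the called genes, 261 were within 0.2 of control with HSF1 shRNA and at least 0.5 above it with RPA1 shRNA, and 297 were the same way below it. The mirror pattern, in which HSF1 shRNA left the control level and RPA1 shRNA did not, held 55 genes above and 38 below control. Both means stood at least 0.3 from control on the same side, with RPA1 shRNA further out, in 147 genes above and 205 below it, and HSF1 shRNA was further out in 15 above and 16 below. By their means alone, the knockdowns stood at least 0.3 on opposite sides of control in 69 genes with HSF1 shRNA above and 39 with RPA1 shRNA above. The remaining 2154 called genes met none of these limits.

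The largest differences of all were genes high with RPA1 shRNA. The gene 1700007K13Rik measured 7.92, 7.73 and 7.68 with HSF1 shRNA, 11.47, 11.62 and 10.48 with RPA1 shRNA and 7.32, 7.24 and 7.47 with control shRNA. All 3 RPA1 shRNA arrays were far above the other 6, array 3 least so, and the difference was -3.42 ± 0.28 (SE, adjusted p = 0.00237). Next came 3 members of the carboxylesterase 2 family, enzymes that hydrolyse ester bonds in lipids and drugs. Ces2e measured 6.97, 6.93 and 6.88 with HSF1 shRNA, 9.70, 10.14 and 8.93 with RPA1 shRNA and 6.31, 6.37 and 6.76 with control shRNA. Its difference was -2.66 ± 0.28 (SE, adjusted p = 0.00354), and those of Ces2g and Ces2f were -2.62 ± 0.26 (SE, adjusted p = 0.0033) and -2.59 ± 0.28 (SE, adjusted p = 0.00394). A further member, Ces2b, differed by -0.97 ± 0.20 (SE, adjusted p = 0.02, not called without HSF1 arrays 1, 2 or 3 or RPA1 arrays 1 or 2, adjusted p up to 0.092), while Ces2a, dim in every array, differed by 0.09 ± 0.07 (SE, adjusted p = 0.433). The family lies in near-identical copies, so its members may share signal on these probe sets and are not 4 independent measurements. In all, 4 of 5 were called higher with RPA1 shRNA (3 without 1 of the other 5 arrays, 4 without RPA1 array 3), with a median difference of -2.59. The share called was 80%, against 16.5% of all genes.

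Other genes high with RPA1 shRNA have other known roles. Tbc1d8, which has the domain of proteins that switch off Rab GTPases, measured 7.61, 7.36 and 7.36 with HSF1 shRNA, 9.86, 10.31 and 8.91 with RPA1 shRNA and 7.45, 7.44 and 7.52 with control shRNA. With HSF1 shRNA it was at the control level, and the difference was -2.25 ± 0.33 (SE, adjusted p = 0.00843, not called without HSF1 array 2, adjusted p up to 0.051). Slc4a11, a membrane transporter, behaved the same way, with 8.10, 7.97 and 8.06 with HSF1 shRNA and 10.03, 10.24 and 9.62 with RPA1 shRNA and a difference of -1.92 ± 0.15 (SE, adjusted p = 0.00234). Cd80, a costimulatory ligand for T cells, differed by -2.13 ± 0.23 (SE, adjusted p = 0.00391). Gnal, an olfactory G protein subunit, differed by -1.70 ± 0.27 (SE, adjusted p = 0.0106, not called without HSF1 arrays 1, 2 or 3 or RPA1 array 1, adjusted p up to 0.058). Tshr, the thyrotropin receptor, differed by -1.70 ± 0.25 (SE, adjusted p = 0.00883, not called without HSF1 arrays 1 or 2, adjusted p up to 0.053).

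On the other side, genes low with RPA1 shRNA led the genes higher with HSF1 shRNA. Snord118, the U8 small nucleolar RNA used in ribosomal RNA maturation, measured 10.11, 9.96 and 9.59 with HSF1 shRNA and 7.52, 7.45 and 8.71 with RPA1 shRNA. Array 3 of RPA1 shRNA lay between the other 2 and the HSF1 shRNA arrays, and the difference was 2.00 ± 0.34 (SE, adjusted p = 0.0123, not called without HSF1 arrays 1 or 2 or RPA1 array 1, adjusted p up to 0.069). Fmod, fibromodulin, a proteoglycan that binds collagen, measured 10.27, 10.05 and 9.89 with HSF1 shRNA, 7.95, 8.03 and 8.90 with RPA1 shRNA and 11.28, 11.30 and 11.20 with control shRNA. Both knockdowns were below control and RPA1 shRNA further so, with a difference of 1.77 ± 0.25 (SE, adjusted p = 0.00812). Gpm6a, a membrane glycoprotein best known from neurons, differed by 1.67 ± 0.12 (SE, adjusted p = 0.00234) and was also graded, at -0.54 and -2.22 from control with HSF1 and RPA1 shRNA. Akr1c14, an aldo-keto reductase of steroid metabolism from a family of close copies, differed by 1.53 ± 0.12 (SE, adjusted p = 0.00234). Cyp39a1, a hydroxylase of oxysterols, differed by 1.52 ± 0.11 (SE, adjusted p = 0.00234). Vsnl1, a neuronal calcium sensor, differed by 1.41 ± 0.14 (SE, adjusted p = 0.00324). These 3 were within 0.2 of control with HSF1 shRNA. Medag differed by 1.78 ± 0.32 (SE, adjusted p = 0.0147, not called without HSF1 arrays 1, 2 or 3 or RPA1 arrays 1 or 2, adjusted p up to 0.076). Upk1b, a uroplakin, differed by 1.53 ± 0.39 (SE, adjusted p = 0.0404, not called without HSF1 arrays 1, 2 or 3 or RPA1 arrays 1 or 2, adjusted p up to 0.15). For both, RPA1 array 3 was nearest the HSF1 shRNA arrays.

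**Figure D2:**
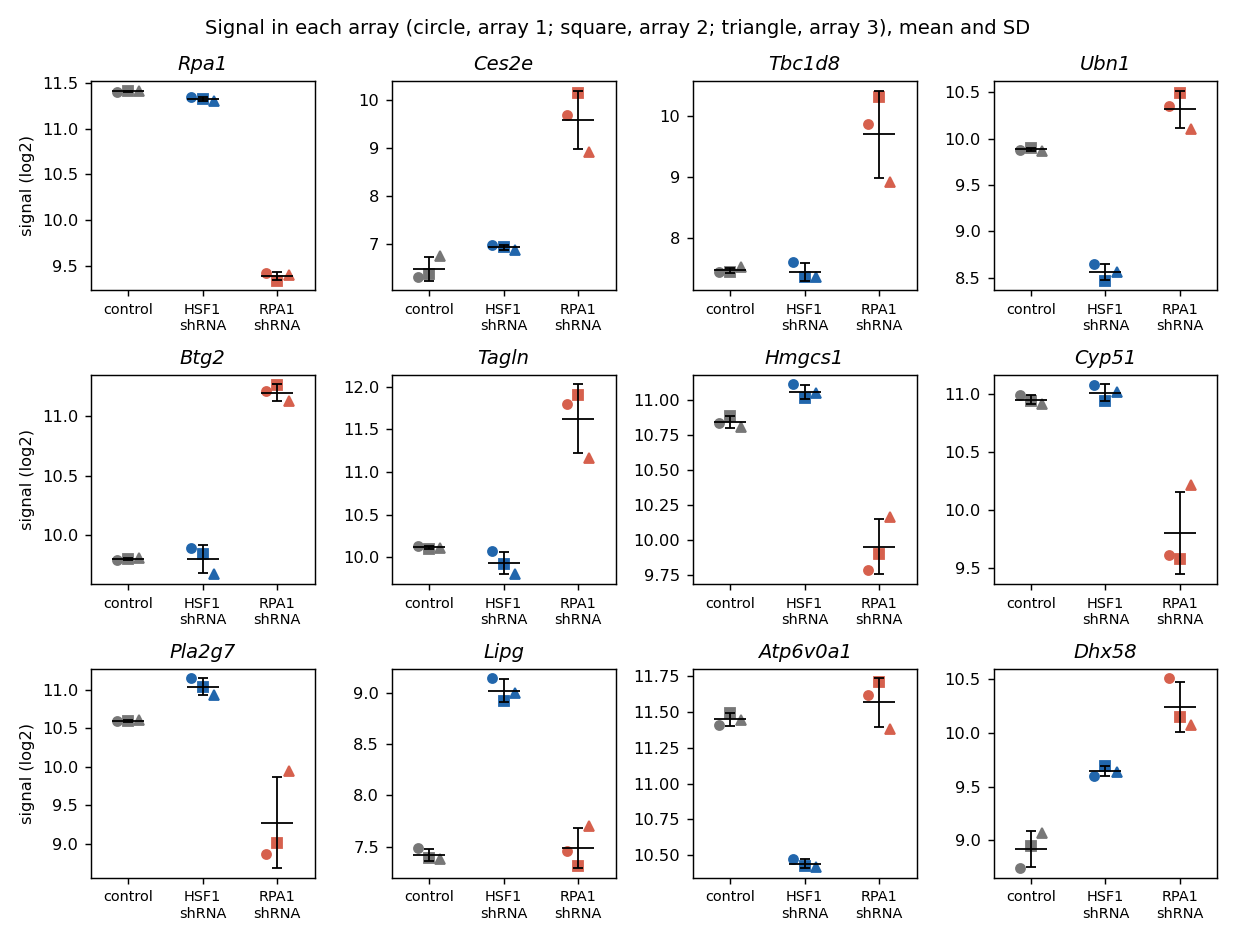
Log2 signals of 12 genes in each array, with control arrays in grey, HSF1 shRNA in blue and RPA1 shRNA in orange; bars are the mean and SD of 3 arrays. RPA1 shRNA array 3 (triangle) lies nearer the other groups than arrays 1 and 2 for Ces2e, Tbc1d8, Ubn1, Btg2, Tagln, Hmgcs1, Cyp51 and Pla2g7, but not for Rpa1.

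Enzymes of cholesterol synthesis stood higher with HSF1 shRNA. Of 18 measured enzymes of the mevalonate and cholesterol pathway, 14 were called higher with HSF1 shRNA and 0 higher with RPA1 shRNA by limma. The 14 became 10 to 12 without 1 of the other 5 arrays, 15 without RPA1 array 3, and at an unadjusted p under 0.05 the counts were 17 and 0. Calls made up 77.8% of the list, against 16.5% of all genes. The median difference was 0.66, against 0.02 for all genes, and all 18 differences were above 0. The list's median against the control mean was 0.26, 0.20 and 0.32 with HSF1 shRNA and -0.52, -0.45 and -0.29 in the RPA1 shRNA arrays, so the groups lay on opposite sides of control. Against control 7 of the 18 were called up with HSF1 shRNA and 13 down with RPA1 shRNA. Over all genes 16.1% were called against control with HSF1 shRNA and 30.1% with RPA1 shRNA, up or down.

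Cyp51, which removes a methyl group from lanosterol, measured 11.08, 10.94 and 11.02 with HSF1 shRNA, 9.61, 9.58 and 10.21 with RPA1 shRNA and 10.99, 10.94 and 10.91 with control shRNA. HSF1 shRNA was at the control level and RPA1 shRNA below it, with a difference of 1.21 ± 0.17 (SE, adjusted p = 0.00754). Sqle, the epoxidase that makes the precursor of the sterol rings, differed by 1.17 ± 0.16 (SE, adjusted p = 0.00696). Hmgcs1, which makes HMG-CoA at the start of the pathway, measured 11.11, 11.01 and 11.05 with HSF1 shRNA, 9.78, 9.90 and 10.17 with RPA1 shRNA and 10.84, 10.89 and 10.80 with control shRNA. No RPA1 shRNA array reached any HSF1 shRNA or control array, and the difference was 1.11 ± 0.10 (SE, adjusted p = 0.00277). Msmo1, a sterol methyl oxidase, differed by 0.89 ± 0.10 (SE, adjusted p = 0.00483) and was the one of these 4 called up with HSF1 shRNA against control, at 0.50, where RPA1 shRNA stood at -0.39.

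Hmgcs1 is a textbook target of SREBP, and its promoter is shown because it was the only one of the list's 18 promoters matched in RefSeq to hold the letters TCACNCCAC, searched on both strands from 250 bases before to 50 after each start. These letters are a form of the sterol response element and were found in 1.18% of all 19177 promoters searched. The 250 bases before the start on the plus strand of GRCm38.p6 (chr13:119690101-119690350) are given with the match in capitals.
Hmgcs1: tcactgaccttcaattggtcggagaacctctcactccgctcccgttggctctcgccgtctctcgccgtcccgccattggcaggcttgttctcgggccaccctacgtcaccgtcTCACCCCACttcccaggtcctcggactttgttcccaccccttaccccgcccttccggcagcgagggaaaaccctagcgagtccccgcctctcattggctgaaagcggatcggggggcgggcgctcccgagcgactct

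The regulators of this pathway differed in more than one direction, with 50% of the list called against 16.5% of all genes. Of 14 genes for SREBP control and cholesterol uptake, 5 were called higher with HSF1 shRNA (4 without 1 of the other 5 arrays, 6 without RPA1 array 3) and 2 higher with RPA1 shRNA (0 without 1 of the other 5 arrays, 4 without RPA1 array 3), with a median of 0.03. Srebf2, which encodes the SREBP of sterol synthesis, measured 12.38, 12.29 and 12.36 with HSF1 shRNA and 11.53, 11.59 and 11.69 with RPA1 shRNA. The groups did not overlap, and the difference was 0.74 ± 0.06 (SE, adjusted p = 0.00237). Stard4, a cholesterol carrier protein, differed by 1.27 ± 0.16 (SE, adjusted p = 0.00618). Insig1 and Insig2, which hold SREBP in the endoplasmic reticulum, were higher with HSF1 shRNA, Insig1 by 2.38-fold (adjusted p = 0.0302, not called without HSF1 arrays 1, 2 or 3 or RPA1 arrays 1 or 2, adjusted p up to 0.11) and Insig2 by 0.56 ± 0.07 (SE, adjusted p = 0.0059) on the log2 scale. Scap, the escort of SREBP, went the other way at -0.35 ± 0.07 (SE, adjusted p = 0.0243, not called without HSF1 arrays 1, 2 or 3 or RPA1 arrays 1 or 2, adjusted p up to 0.1).

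Among 21 genes of fatty acid synthesis and desaturation, 10 were called higher with HSF1 shRNA and 0 higher with RPA1 shRNA by limma, with a median of 0.24. Calls made up 47.6% of the list, against 16.5% of all genes. The 10 became 5 to 7 without 1 of the other 5 arrays, 13 without RPA1 array 3, and unadjusted counts were 11 and 0. The 0 became 1 without RPA1 array 3. Elovl7, an elongase, differed by 0.93 ± 0.11 (SE, adjusted p = 0.00483). Acsl4, which activates polyunsaturated fatty acids, differed by 0.88 ± 0.12 (SE, adjusted p = 0.00797). Elovl6, the elongase of palmitate, differed by 1.03 ± 0.19 (SE, adjusted p = 0.0161, not called without HSF1 arrays 1, 2 or 3 or RPA1 arrays 1 or 2, adjusted p up to 0.08). Scd2, a desaturase and among the brightest genes, measured 13.97, 13.90 and 13.99 with HSF1 shRNA and 12.96, 12.90 and 13.41 with RPA1 shRNA. It differed by 0.86 ± 0.13 (SE, adjusted p = 0.00963, not called without HSF1 arrays 1 or 2 or RPA1 array 1, adjusted p up to 0.055). A lipid gene outside the lists was among the largest differences. Pla2g7, the platelet-activating factor acetylhydrolase, was above control with HSF1 shRNA (0.44, not called) and below with RPA1 shRNA (-1.32), a difference of 1.76 ± 0.27 (SE, adjusted p = 0.00938, not called without HSF1 arrays 1 or 2, adjusted p up to 0.056).

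Targets of p53 showed the opposite direction. Of 38 measured, 24 were called higher with RPA1 shRNA and 1 higher with HSF1 shRNA, and the median difference was -0.51. The share called was 65.8%, against 16.5% of all genes. The 24 became 11 to 18 without 1 of the other 5 arrays, 27 without RPA1 array 3, and the 1 became 0 to 1 without 1 of the other 5 arrays, 2 without RPA1 array 3. Per array, the list's median against control was 0.10, 0.10 and 0.10 with HSF1 shRNA and 0.61, 0.68 and 0.47 with RPA1 shRNA. Both groups lay above control and did not overlap. Against control 30 members were called up with RPA1 shRNA and 9 with HSF1 shRNA. Over all genes 30.1% were called against control with RPA1 shRNA and 16.1% with HSF1 shRNA, up or down.

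Eda2r, a receptor of the tumour necrosis factor family, measured 7.52, 7.36 and 7.37 with HSF1 shRNA, 9.02, 9.11 and 8.67 with RPA1 shRNA and 6.79, 7.06 and 6.84 with control shRNA. Its difference was -1.52 ± 0.12 (SE, adjusted p = 0.00234). Btg2, an antiproliferative gene, measured 9.89, 9.84 and 9.66 with HSF1 shRNA, 11.21, 11.26 and 11.13 with RPA1 shRNA and 9.79, 9.79 and 9.80 with control shRNA. HSF1 shRNA was at the control level, and the difference was -1.40 ± 0.07 (SE, adjusted p = 0.00206). Mdm2, the ubiquitin ligase that restrains p53, measured 11.07, 11.03 and 11.09 with HSF1 shRNA and 12.45, 12.49 and 12.09 with RPA1 shRNA. It differed by -1.28 ± 0.11 (SE, adjusted p = 0.00237). It was also above control with HSF1 shRNA, at 0.45 against 1.73 with RPA1 shRNA. Trp53inp1 differed by -1.46 ± 0.37 (SE, adjusted p = 0.0418, not called without HSF1 arrays 1, 2 or 3 or RPA1 arrays 1 or 2, adjusted p up to 0.16), with array 3 at 10.39 and the other 2 RPA1 shRNA arrays at 11.77 and 11.88. Sesn1, a sestrin of the stress response, was the member called the other way, at 0.59 ± 0.12 (SE, adjusted p = 0.021, not called without HSF1 arrays 1, 2 or 3 or RPA1 array 1, adjusted p up to 0.091), and was below control in both groups.

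The Btg2 promoter is shown because Btg2 was the called p53 target most level with control under HSF1 shRNA among those named, and because it holds the cyclic AMP response element letters TGACGTCA. These were found in 4 of 41 promoters of the p53 list (9.76%) and in 2.37% of all promoters, both strands searched. The letters TGACTCA, the AP-1 site, were also in 4 of the 41 (9.76%) and in 4.63% of all promoters. No p53 binding site was among the motifs searched, and a link of either motif to the list was not tested. The 250 bases before the start on the minus strand of GRCm38.p6 (chr1:134079156-134079405) are printed with the match in capitals.
Btg2: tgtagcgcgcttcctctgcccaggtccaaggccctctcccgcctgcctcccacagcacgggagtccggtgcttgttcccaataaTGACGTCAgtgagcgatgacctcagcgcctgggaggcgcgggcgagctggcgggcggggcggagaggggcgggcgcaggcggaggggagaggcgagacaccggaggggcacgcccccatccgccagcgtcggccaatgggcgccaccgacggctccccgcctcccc

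Genes of the cell cycle gave calls in both directions. Of 52 DNA replication genes, 6 were called higher with HSF1 shRNA (2 to 4 without 1 of the other 5 arrays, 10 without RPA1 array 3) and 2 higher with RPA1 shRNA (1 without 1 of the other 5 arrays, 12 without RPA1 array 3), with a median of -0.04, and the share called, 15.4%, was near the 16.5% of all genes. Ccne1, cyclin E1, which starts S phase, measured 10.57, 10.58 and 10.61 with HSF1 shRNA, 11.45, 11.59 and 11.46 with RPA1 shRNA and 10.17, 10.26 and 10.22 with control shRNA. Both knockdowns were above control and RPA1 shRNA further, with a difference of -0.91 ± 0.06 (SE, adjusted p = 0.00206). Pold2, a subunit of the polymerase of the lagging strand, differed by 0.48 ± 0.08 (SE, adjusted p = 0.0105, not called without HSF1 array 1, adjusted p up to 0.053). The letters TTTGGCGC or TTTCGCGC, forms of the E2F site, were in 13 of 51 promoters of this list (25.5%) and in 1.13% of all promoters.

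Neither partner of RPA1 in its trimer was called. Rpa2 differed by 0.14 ± 0.05 (SE, adjusted p = 0.114), with a 95% interval from 0.02 to 0.25, and Rpa3 by 0.12 ± 0.11 (SE, adjusted p = 0.539), with an interval from -0.15 to 0.38. Against control Rpa2 was called lower in both groups, at -0.17 with HSF1 shRNA and -0.30 with RPA1 shRNA. Of 15 ATR checkpoint genes 20% were called, against 16.5% of all genes. Higher with HSF1 shRNA were 2, Etaa1 and Rad17, and 1, Rad9a, was higher with RPA1 shRNA. None of these 3 calls held without any one of HSF1 arrays 1 to 3 or RPA1 arrays 1 and 2. In the 47 genes of break and excision repair 7 were higher with HSF1 shRNA (1 to 2 without 1 of the other 5 arrays, 14 without RPA1 array 3) and 1 higher with RPA1 shRNA (0 to 1 without 1 of the other 5 arrays, 9 without RPA1 array 3), a share of 17% that was near that of all genes. Trp53bp1, a scaffold at broken DNA ends, differed by 0.50 ± 0.05 (SE, adjusted p = 0.00428).

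Of 43 mitotic genes 5 were called higher with HSF1 shRNA (1 to 2 without 1 of the other 5 arrays, 13 without RPA1 array 3) and 2 higher with RPA1 shRNA (0 to 2 without 1 of the other 5 arrays, 2 without RPA1 array 3). In the fit of all 6 arrays the share called, 16.3%, was near the 16.5% of all genes. Cenpf, a kinetochore protein, differed by 0.41 ± 0.06 (SE, adjusted p = 0.00919), whereas Foxm1, the activator of mitotic genes, and Cenpe, a kinetochore motor, differed by -0.33 ± 0.05 (SE, adjusted p = 0.00947, not called without HSF1 array 2, adjusted p up to 0.051) and -0.36 ± 0.06 (SE, adjusted p = 0.00927, not called without HSF1 array 2, adjusted p up to 0.051). Foxm1 and Cenpe were at the control level with RPA1 shRNA and below it with HSF1 shRNA, at -0.34 and -0.37. Of 25 G1 genes 3 were called higher with HSF1 shRNA (0 to 2 without 1 of the other 5 arrays, 4 without RPA1 array 3) and 4 higher with RPA1 shRNA (1 to 2 without 1 of the other 5 arrays, 6 without RPA1 array 3), 28% of the list against 16.5% of all genes. Among them E2f1, Rb1 and Ccnd2 were called higher with RPA1 shRNA, and the inhibitor Cdkn2b higher with HSF1 shRNA. None of these 4 calls held without any one of HSF1 arrays 1 to 3 or RPA1 array 1. Of these, E2f1 differed by -0.83 ± 0.20 (SE, adjusted p = 0.0372, not called without HSF1 arrays 1, 2 or 3 or RPA1 arrays 1 or 2, adjusted p up to 0.14), with array 3 at 11.01 and the other RPA1 shRNA arrays at 11.69 and 11.86.

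Of 21 replication-dependent histone genes, 10 were called below control with HSF1 shRNA and 15 with RPA1 shRNA. Over all genes these comparisons called 16.1% and 30.1%, up or down. Directly, 8 histone genes were called higher with HSF1 shRNA (2 to 5 without 1 of the other 5 arrays, 12 without RPA1 array 3) and 1 higher with RPA1 shRNA (0 without 1 of the other 5 arrays, 1 without RPA1 array 3), with a median of 0.28. These direct calls were 42.9% of the list, against 16.5% of all genes. The list stood at -0.18, -0.28 and -0.34 against control with HSF1 shRNA and -0.59, -0.58 and -0.50 in the RPA1 shRNA arrays. H1f5 and H1f1, linker histones, differed by 0.71 ± 0.10 (SE, adjusted p = 0.00807) and 0.63 ± 0.08 (SE, adjusted p = 0.00569). H2bc4 was the member called the other way, at -0.57 ± 0.15 (SE, adjusted p = 0.0419, not called without HSF1 arrays 1, 2 or 3 or RPA1 arrays 1 or 2, adjusted p up to 0.15), and was above control in both groups. Histone genes are close copies, so signal may be shared among them. Ubn1, a subunit of the HIRA complex that deposits the replication-independent histone H3.3, had one of the largest differences of all genes. It measured 8.65, 8.47 and 8.56 with HSF1 shRNA, 10.36, 10.50 and 10.10 with RPA1 shRNA and 9.88, 9.90 and 9.87 with control shRNA. HSF1 shRNA was below control and RPA1 shRNA above it in every array, with a difference of -1.76 ± 0.11 (SE, adjusted p = 0.00206).

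Several contractile genes of smooth muscle and myofibroblasts stood higher with RPA1 shRNA. Of 26, 11 were called higher with RPA1 shRNA and 0 higher with HSF1 shRNA by limma, with a median of -0.21. Calls made up 42.3% of the list, against 16.5% of all genes. The 11 became 4 to 6 without 1 of the other 5 arrays, 14 without RPA1 array 3, and unadjusted counts, higher with HSF1 and with RPA1 shRNA, were 0 and 15. The 0 became 1 without RPA1 array 3. Tagln, an actin-binding protein, measured 10.07, 9.92 and 9.81 with HSF1 shRNA, 11.80, 11.91 and 11.16 with RPA1 shRNA and 10.14, 10.10 and 10.11 with control shRNA. HSF1 shRNA was at or just below control, and the difference was -1.69 ± 0.19 (SE, adjusted p = 0.0048). Acta2, smooth muscle actin, differed by -1.13 ± 0.22 (SE, adjusted p = 0.0185, not called without HSF1 arrays 1, 2 or 3 or RPA1 arrays 1 or 2, adjusted p up to 0.087), with array 3 at 13.03 and the other RPA1 shRNA arrays at 13.81 and 13.91. Actg2, enteric actin, differed by -0.91 ± 0.16 (SE, adjusted p = 0.0139, not called without HSF1 arrays 1, 2 or 3 or RPA1 array 1, adjusted p up to 0.069). Srf, the factor that drives these genes, measured 10.55, 10.48 and 10.53 with HSF1 shRNA and 11.28, 11.38 and 11.04 with RPA1 shRNA. It differed by -0.71 ± 0.09 (SE, adjusted p = 0.0059).

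AP-1 and other immediate early factors also stood higher with RPA1 shRNA. Of 23, 13 were called in that direction (6 to 8 without 1 of the other 5 arrays, 14 without RPA1 array 3) and 0 in the other by limma, with a median of -0.35 and unadjusted counts of 1 and 14. Without RPA1 array 3 the 0 became 4. The share called in the fit of all 6 arrays was 56.5%, against 16.5% of all genes. Atf3 measured 10.44, 10.27 and 10.35 with HSF1 shRNA and 11.11, 11.16 and 11.24 with RPA1 shRNA, a difference of -0.81 ± 0.06 (SE, adjusted p = 0.00234). Fosl1, a Fos family member, was above control in both, at 1.21 with HSF1 shRNA and 1.88 with RPA1 shRNA, a difference of -0.67 ± 0.06 (SE, adjusted p = 0.00306). Nr4a1, an orphan nuclear receptor, was level with control under HSF1 shRNA and differed by -0.60 ± 0.07 (SE, adjusted p = 0.00439). Of 19 ERK pathway feedback genes 2 were called higher with HSF1 shRNA (0 to 1 without 1 of the other 5 arrays, 5 without RPA1 array 3) and 5 higher with RPA1 shRNA (3 without 1 of the other 5 arrays, 6 without RPA1 array 3), with a median of -0.01. These calls were 36.8% of the feedback list, against 16.5% of all genes. Etv1, an ETS factor, differed by 0.78 ± 0.16 (SE, adjusted p = 0.0221, not called without HSF1 arrays 1, 2 or 3 or RPA1 arrays 1 or 2, adjusted p up to 0.1). The phosphatases Dusp8 and Dusp7, which limit MAP kinases, differed by -0.63 ± 0.07 (SE, adjusted p = 0.00354) and -0.43 ± 0.06 (SE, adjusted p = 0.0078). Among 25 YAP and TEAD targets the calls were mixed, 4 higher with HSF1 shRNA (1 without 1 of the other 5 arrays, 7 without RPA1 array 3) and 6 higher with RPA1 shRNA (1 to 4 without 1 of the other 5 arrays, 8 without RPA1 array 3), 40% of the list against 16.5% of all genes. Ankrd1, a cardiac and muscle stress gene, differed by -0.80 ± 0.05 (SE, adjusted p = 0.00223). Nt5e, an ecto-nucleotidase, differed by 0.62 ± 0.06 (SE, adjusted p = 0.0033).

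**Figure D3:**
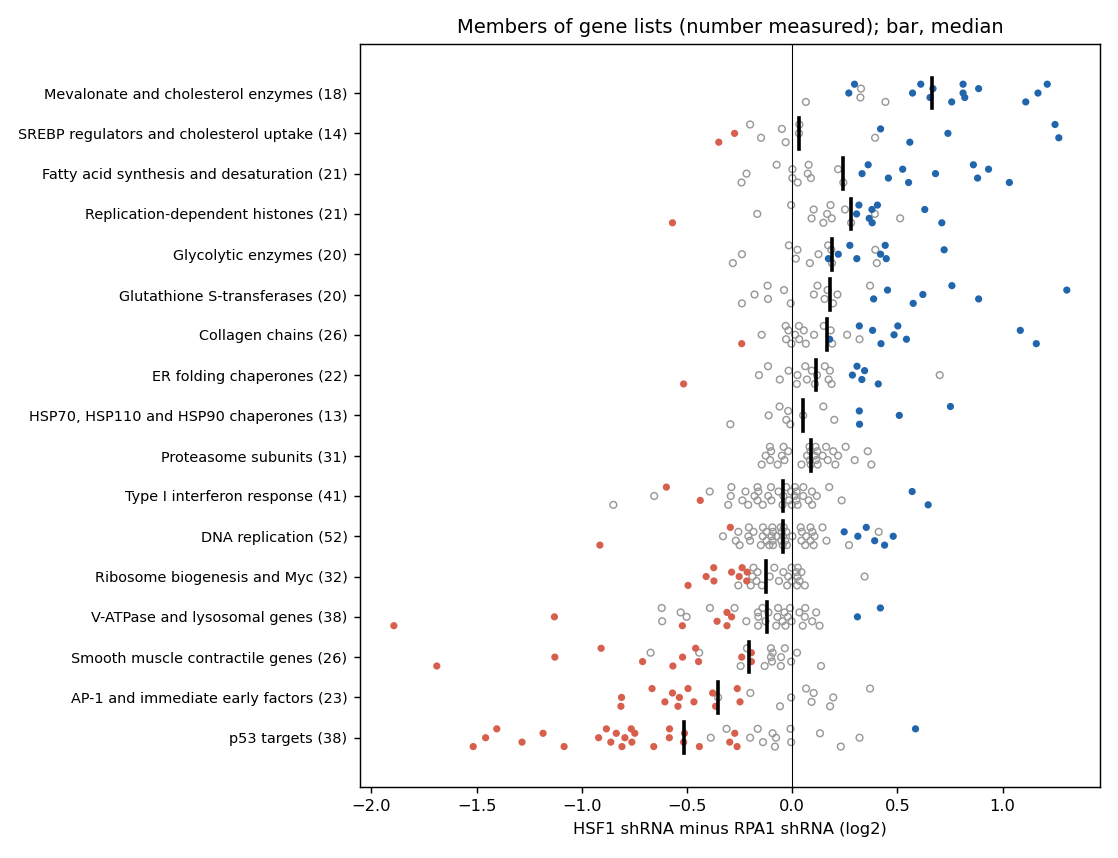
Each point is a list member, placed by its difference HSF1 shRNA minus RPA1 shRNA (log2); filled blue points were called higher with HSF1 shRNA, filled orange points higher with RPA1 shRNA, open points were not called, and the black bar is the median. Cholesterol enzymes (14 of 18 called) and p53 targets (24 of 38 called higher with RPA1 shRNA) lie at the ends, and none of the 31 proteasome subunits was called by limma. Of all genes 16.5% were called.

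Several collagen and matrix genes stood lower with RPA1 shRNA. Of 26 collagen chains 9 were called higher with HSF1 shRNA (3 to 5 without 1 of the other 5 arrays, 13 without RPA1 array 3) and 1 higher with RPA1 shRNA (0 without 1 of the other 5 arrays, 2 without RPA1 array 3), with a median of 0.16. Calls made up 38.5% of the list, against 16.5% of all genes. Col6a1, a chain of microfibrillar collagen, measured 11.55, 11.60 and 11.50 with HSF1 shRNA, 10.30, 10.09 and 10.77 with RPA1 shRNA and 11.87, 11.87 and 11.90 with control shRNA. The RPA1 shRNA arrays were lowest, and the difference was 1.16 ± 0.16 (SE, adjusted p = 0.00761). Its partner Col6a2 differed by 1.08 ± 0.13 (SE, adjusted p = 0.00483). Col1a2, of the main fibrillar collagen, differed by 0.54 ± 0.14 (SE, adjusted p = 0.0465, not called without HSF1 arrays 1, 2 or 3 or RPA1 arrays 1 or 2, adjusted p up to 0.16). Among 46 matricellular, adhesive and elastic fibre genes 11 were higher with HSF1 shRNA (2 to 5 without 1 of the other 5 arrays, 16 without RPA1 array 3) and 5 higher with RPA1 shRNA (1 to 2 without 1 of the other 5 arrays, 8 without RPA1 array 3), 34.8% of the list. Lox, the enzyme that cross-links collagen, measured 12.60, 12.54 and 12.54 with HSF1 shRNA and 10.83, 10.56 and 11.88 with RPA1 shRNA. Array 3 again lay between, and the difference was 1.47 ± 0.31 (SE, adjusted p = 0.0238, not called without HSF1 arrays 1, 2 or 3 or RPA1 arrays 1 or 2, adjusted p up to 0.11). Thbs3, a thrombospondin, differed by 0.66 ± 0.10 (SE, adjusted p = 0.0085, not called without HSF1 array 2, adjusted p up to 0.05), and Lama2, a laminin chain, went the other way at -0.80 ± 0.17 (SE, adjusted p = 0.0227, not called without HSF1 arrays 1, 2 or 3 or RPA1 arrays 1 or 2, adjusted p up to 0.091).

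The PDGF receptors, which carry growth signals in fibroblasts, were also lower with RPA1 shRNA. Pdgfra measured 9.65, 9.55 and 9.38 with HSF1 shRNA, 8.72, 8.72 and 8.73 with RPA1 shRNA and 10.49, 10.45 and 10.34 with control shRNA. HSF1 shRNA was between control and RPA1 shRNA, with a difference of 0.80 ± 0.07 (SE, adjusted p = 0.00304). Pdgfrb was nearer control with HSF1 shRNA, at -0.20 against -1.06, and differed by 0.86 ± 0.10 (SE, adjusted p = 0.00452). Of the 7 genes of this family, 4 were called higher with HSF1 shRNA (2 to 3 without 1 of the other 5 arrays, 4 without RPA1 array 3) and 1, the ligand Pdgfa, higher with RPA1 shRNA at -0.43 ± 0.10 (SE, adjusted p = 0.0299, not called without HSF1 arrays 1, 2 or 3 or RPA1 arrays 1 or 2, adjusted p up to 0.12). In this small family 71.4% were called, against 16.5% of all genes. Pdgfrl differed by 0.75 ± 0.12 (SE, adjusted p = 0.00947, not called without HSF1 array 2 or RPA1 array 1, adjusted p up to 0.053). Pdgfc differed by 0.22 ± 0.06 (SE, adjusted p = 0.0486, not called without HSF1 arrays 1, 2 or 3 or RPA1 arrays 1 or 2, adjusted p up to 0.15). The ligands Pdgfb and Pdgfd were not called, at 0.10 ± 0.07 (SE, adjusted p = 0.379) and -0.03 ± 0.16 (SE, adjusted p = 0.925).

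Secreted regulators gave counts in both directions. Of 35 genes of the TGF-beta and BMP pathway 10 were called higher with HSF1 shRNA (5 to 6 without 1 of the other 5 arrays, 12 without RPA1 array 3) and 4 higher with RPA1 shRNA (1 to 2 without 1 of the other 5 arrays, 5 without RPA1 array 3), 40% of the list against 16.5% of all genes. The ligand Tgfb3 differed by 0.77 ± 0.11 (SE, adjusted p = 0.00757), and Id3, an inhibitor of basic helix-loop-helix factors and a BMP target, measured 11.33, 11.15 and 11.15 with HSF1 shRNA and 10.55, 10.31 and 10.49 with RPA1 shRNA, a difference of 0.76 ± 0.08 (SE, adjusted p = 0.00399). Fst, follistatin, which traps activins, went the other way at -0.65 ± 0.11 (SE, adjusted p = 0.0117, not called without HSF1 arrays 1, 2 or 3, adjusted p up to 0.059). Of 34 Wnt genes 5 were higher with HSF1 shRNA (1 to 5 without 1 of the other 5 arrays, 6 without RPA1 array 3) and 5 higher with RPA1 shRNA (3 without 1 of the other 5 arrays, 6 without RPA1 array 3), 29.4% of the list against 16.5% of all genes. The receptor Fzd2 differed by 0.71 ± 0.08 (SE, adjusted p = 0.00483) and the ligand Wnt9a by -0.68 ± 0.09 (SE, adjusted p = 0.00696). Of 30 semaphorins and their receptors 9 were higher with HSF1 shRNA (4 to 6 without 1 of the other 5 arrays, 13 without RPA1 array 3) and 2 higher with RPA1 shRNA (1 without 1 of the other 5 arrays, 8 without RPA1 array 3), 36.7% of the list. The guidance ligands Sema3c and Sema6d differed by 0.97 ± 0.14 (SE, adjusted p = 0.00797) and 0.75 ± 0.07 (SE, adjusted p = 0.00319). Sema3a differed by 1.26 ± 0.19 (SE, adjusted p = 0.00921, not called without HSF1 array 1, adjusted p up to 0.055). Itgb3, an integrin chain, differed by 0.96 ± 0.06 (SE, adjusted p = 0.00223), while the laminin receptor chain Itga6 differed by -0.83 ± 0.18 (SE, adjusted p = 0.0255, not called without HSF1 arrays 1, 2 or 3 or RPA1 arrays 1 or 2, adjusted p up to 0.11).

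Glutathione S-transferases, which conjugate reactive compounds, gave calls in one direction. Of 20 glutathione S-transferases 7 were called higher with HSF1 shRNA (4 to 6 without 1 of the other 5 arrays, 8 without RPA1 array 3) and 0 higher with RPA1 shRNA by limma, with unadjusted counts of 10 and 1 and a median of 0.18. The 7 were 35% of the list, against 16.5% of all genes. Mgst1, the microsomal enzyme, measured 9.90, 9.85 and 9.52 with HSF1 shRNA, 8.28, 8.54 and 8.53 with RPA1 shRNA and 9.70, 9.91 and 9.94 with control shRNA. RPA1 shRNA was the low group, and the difference was 1.30 ± 0.12 (SE, adjusted p = 0.00292). Gstm1 and Gstm2 differed by 0.89 ± 0.10 (SE, adjusted p = 0.00439) and 0.76 ± 0.06 (SE, adjusted p = 0.00237), but the Gstm genes are close copies that may share signal. Of 26 NRF2 targets and metallothioneins 3 were higher with HSF1 shRNA (0 to 2 without 1 of the other 5 arrays, 4 without RPA1 array 3) and 2 higher with RPA1 shRNA (1 without 1 of the other 5 arrays, 4 without RPA1 array 3), with a median of 0.00. In the fit of all 6 arrays these calls were 19.2% of the list, near the 16.5% of all genes. Nqo1, a quinone reductase, differed by 0.47 ± 0.08 (SE, adjusted p = 0.0128, not called without HSF1 arrays 1 or 2 or RPA1 array 1, adjusted p up to 0.066). Abcc1, an exporter of conjugates, differed by -0.44 ± 0.06 (SE, adjusted p = 0.00653).

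Heat shock genes, the textbook targets of HSF1, gave calls for single members. None of the 5 other heat shock factors was called by limma (unadjusted counts 1 and 1), although 1 was higher with RPA1 shRNA without RPA1 array 3. Hsf2 differed by 0.15 ± 0.05 (SE, adjusted p = 0.0822). Of 13 HSP70, HSP110 and HSP90 chaperones 4 were called, all higher with HSF1 shRNA (1 to 2 without 1 of the other 5 arrays, 4 without RPA1 array 3), with a median of 0.05. The 4 were 30.8% of the list, against 16.5% of all genes. Hspa2, a testis-enriched HSP70, measured 10.51, 10.39 and 10.40 with HSF1 shRNA, 9.86, 10.05 and 9.86 with RPA1 shRNA and 10.34, 10.23 and 10.22 with control shRNA. Its difference was 0.51 ± 0.07 (SE, adjusted p = 0.0078). Hspa4l, an HSP110 relative, differed by 0.75 ± 0.18 (SE, adjusted p = 0.0315, not called without HSF1 arrays 1, 2 or 3 or RPA1 arrays 1 or 2, adjusted p up to 0.12), and Hspa14 and Hspa13 by 0.32 ± 0.06 (SE, adjusted p = 0.0154, not called without HSF1 arrays 1, 2 or 3 or RPA1 arrays 1 or 2, adjusted p up to 0.066) and 0.32 ± 0.06 (SE, adjusted p = 0.0164, not called without HSF1 arrays 1, 2 or 3 or RPA1 array 1, adjusted p up to 0.064). Over the 13 chaperones the differences ran from -0.29 to 0.75, and 7 were above 0. The stress-inducible Hspa1a, chosen after its values were seen, differed by -0.06 ± 0.10 (SE, adjusted p = 0.752), and the constitutive Hspa8, chosen likewise, by -0.03 ± 0.04 (SE, adjusted p = 0.718).

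Co-chaperones gave single calls. Dnaja4, a partner of HSP70, measured 8.81, 8.86 and 8.85 with HSF1 shRNA, 9.42, 9.34 and 9.35 with RPA1 shRNA and 8.68, 8.85 and 8.89 with control shRNA. It was at the control level with HSF1 shRNA and above it in all 3 RPA1 shRNA arrays, a difference of -0.53 ± 0.05 (SE, adjusted p = 0.00274). Cryab, a small heat shock protein, measured 11.85, 11.82 and 11.85 with HSF1 shRNA and 12.59, 12.57 and 12.31 with RPA1 shRNA. It differed by -0.65 ± 0.08 (SE, adjusted p = 0.00569). Ptges3, the HSP90 co-chaperone p23, differed by -0.42 ± 0.07 (SE, adjusted p = 0.00976, not called without HSF1 arrays 1 or 2, adjusted p up to 0.054), with HSF1 shRNA below control at -0.38, and Fkbp5, an immunophilin, by 0.48 ± 0.08 (SE, adjusted p = 0.01, not called without HSF1 array 1, adjusted p up to 0.053). In the cytosolic chaperonin and prefoldin list Vbp1 and Cct7 were called in opposite directions, at 0.35 ± 0.05 (SE, adjusted p = 0.00883) and -0.35 ± 0.06 (SE, adjusted p = 0.0105, not called without RPA1 array 1, adjusted p up to 0.051). None of 31 proteasome subunits was called by limma, with unadjusted counts of 6 and 2, although without RPA1 array 3 a count of 10 were called higher with HSF1 shRNA. Calls over all genes also rose in that fit, from 3296 to 5670, and those higher with HSF1 shRNA from 2001 to 3257. Whether the 10 subunits exceed this general rise was not tested.

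Zfand2a, an arsenite-inducible gene and known HSF1 target, measured 13.23, 13.21 and 13.26 with HSF1 shRNA, 13.46, 13.49 and 13.59 with RPA1 shRNA and 12.94, 12.92 and 12.94 with control shRNA. Both knockdowns were above control, RPA1 shRNA more so, and the difference was -0.28 ± 0.05 (SE, adjusted p = 0.0175, not called without HSF1 arrays 1, 2 or 3 or RPA1 array 2, adjusted p up to 0.077). Its promoter is shown as an example of a heat shock element in front of a gene that stood higher with RPA1 shRNA. The letters GAANNTTC or TTCNNGAA, which are a pair of inverted units of that element, were found on either strand in 6 of 19 promoters of the HSP90 co-chaperone list (31.6%) and in 13.2% of all promoters. Among genes called at 1.5-fold or more they were in 12.4% of promoters of those higher with HSF1 shRNA and 11.1% of those higher with RPA1 shRNA. The 250 bases before the start on the minus strand of GRCm38.p6 (chr5:139484492-139484741) are printed with the match in capitals.
Zfand2a: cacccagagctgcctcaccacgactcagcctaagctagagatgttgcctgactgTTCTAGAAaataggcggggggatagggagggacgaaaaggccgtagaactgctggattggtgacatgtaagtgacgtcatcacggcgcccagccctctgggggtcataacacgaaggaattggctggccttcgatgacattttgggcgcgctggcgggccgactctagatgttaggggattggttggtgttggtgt

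Of 22 chaperones and folding enzymes of the endoplasmic reticulum 5 were called higher with HSF1 shRNA (3 to 5 without 1 of the other 5 arrays, 8 without RPA1 array 3) and 1 the other way (0 to 1 without 1 of the other 5 arrays, 2 without RPA1 array 3), 27.3% of the list against 16.5% of all genes. P4hb, protein disulfide isomerase, measured 13.42, 13.34 and 13.34 with HSF1 shRNA and 13.02, 12.99 and 13.05 with RPA1 shRNA. It differed by 0.34 ± 0.05 (SE, adjusted p = 0.00821), and its relative Txndc5 by 0.33 ± 0.05 (SE, adjusted p = 0.00861). Dnajb9, induced by unfolded proteins, was the exception at -0.52 ± 0.10 (SE, adjusted p = 0.0204, not called without HSF1 arrays 1, 2 or 3 or RPA1 array 2, adjusted p up to 0.088), low with HSF1 shRNA. Of 31 ATF4 and unfolded protein response genes 5 were higher with HSF1 shRNA (1 to 2 without 1 of the other 5 arrays, 9 without RPA1 array 3) and 7 higher with RPA1 shRNA (1 to 3 without 1 of the other 5 arrays, 8 without RPA1 array 3), 38.7% of the list. Xbp1, whose spliced form drives folding genes, differed by 0.59 ± 0.07 (SE, adjusted p = 0.00483). Sesn2, a sestrin, differed by -0.44 ± 0.07 (SE, adjusted p = 0.0121, not called without HSF1 array 2, adjusted p up to 0.05).

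Interferon response genes stood above control in both knockdowns, and few were called between them. Of 41, 38 were called above control with HSF1 shRNA and 37 with RPA1 shRNA, comparisons that share the control arrays. Over all genes these comparisons called 16.1% and 30.1%, up or down. The list stood at 0.77, 0.78 and 0.71 against control with HSF1 shRNA and 1.07, 0.67 and 0.76 in the RPA1 shRNA arrays, where array 1 was highest, and the control arrays themselves at -0.12, -0.01 and 0.15. Directly, 2 were called higher with HSF1 shRNA (1 without 1 of the other 5 arrays, 4 without RPA1 array 3) and 2 higher with RPA1 shRNA (0 to 3 without 1 of the other 5 arrays, 8 without RPA1 array 3), 9.76% of the list against 16.5% of all genes. Ifit2, an interferon-induced protein that binds RNA, measured 10.05, 9.98 and 9.96 with HSF1 shRNA, 9.37, 9.25 and 9.44 with RPA1 shRNA and 9.56, 9.70 and 9.67 with control shRNA. It was above control with HSF1 shRNA and below it with RPA1 shRNA, a difference of 0.65 ± 0.06 (SE, adjusted p = 0.0033). Dhx58, an RNA sensor, differed by -0.60 ± 0.11 (SE, adjusted p = 0.0171, not called without HSF1 arrays 1, 2 or 3, adjusted p up to 0.082). Isg20, an exonuclease, differed by 0.57 ± 0.14 (SE, adjusted p = 0.0404, not called without HSF1 arrays 1, 2 or 3 or RPA1 arrays 1 or 2, adjusted p up to 0.15).

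Ifit3, a relative of Ifit2 chosen for its promoter after its values were seen, measured 10.54, 10.54 and 10.42 with HSF1 shRNA, 11.74, 10.86 and 10.87 with RPA1 shRNA and 9.84, 9.97 and 10.24 with control shRNA. RPA1 array 1 was highest, and with a difference of -0.66 ± 0.23 (SE, adjusted p = 0.104) it was not called. Its promoter is shown because it holds the interferon response core AAANNGAAA more than once. On either strand these letters were in 19 of 36 promoters of the interferon list (52.8%) and in 9.47% of all promoters. The 250 bases before the start on the plus strand of GRCm38.p6 (chr19:34583279-34583528) are printed with the matches, read on the other strand, in capitals.
Ifit3: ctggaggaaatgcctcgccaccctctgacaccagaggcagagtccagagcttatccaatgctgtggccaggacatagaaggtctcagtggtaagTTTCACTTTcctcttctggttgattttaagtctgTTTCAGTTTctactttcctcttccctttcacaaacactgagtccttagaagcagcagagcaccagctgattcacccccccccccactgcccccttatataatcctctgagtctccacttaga

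Inflammatory genes split by gene. Of 22 genes in the NF-kB list 6 were higher with HSF1 shRNA (1 without 1 of the other 5 arrays, 8 without RPA1 array 3) and 6 higher with RPA1 shRNA (1 to 3 without 1 of the other 5 arrays, 9 without RPA1 array 3), 54.5% of the list against 16.5% of all genes. Nos2, inducible nitric oxide synthase, measured 9.52, 9.39 and 9.26 with HSF1 shRNA and 8.55, 8.39 and 8.53 with RPA1 shRNA. It differed by 0.90 ± 0.08 (SE, adjusted p = 0.00289). Tnfaip3, the feedback inhibitor A20, measured 9.23, 9.19 and 9.23 with HSF1 shRNA and 9.88, 9.95 and 9.96 with RPA1 shRNA and went the other way at -0.71 ± 0.05 (SE, adjusted p = 0.00223). Of 25 chemokines 5 were higher with HSF1 shRNA (3 to 5 without 1 of the other 5 arrays, 8 without RPA1 array 3) and 2 higher with RPA1 shRNA (0 to 3 without 1 of the other 5 arrays, 3 without RPA1 array 3), among them Cxcl15 at 1.21 ± 0.15 (SE, adjusted p = 0.00529) and Ccl20 at -0.87 ± 0.16 (SE, adjusted p = 0.0149, not called without HSF1 arrays 1, 2 or 3 or RPA1 array 1, adjusted p up to 0.073). Of 21 cytokines 3 were higher with HSF1 shRNA (0 to 2 without 1 of the other 5 arrays, 5 without RPA1 array 3) and 5 higher with RPA1 shRNA (3 to 4 without 1 of the other 5 arrays, 5 without RPA1 array 3). Calls were 28% of the chemokine list and 38.1% of the cytokine list, against 16.5% of all genes. Csf2 and Csf1, growth factors of myeloid cells, differed by -1.09 ± 0.09 (SE, adjusted p = 0.00237) and -0.71 ± 0.06 (SE, adjusted p = 0.00237). Il33, an alarmin, differed by 1.21 ± 0.24 (SE, adjusted p = 0.0189, not called without HSF1 arrays 1, 2 or 3 or RPA1 arrays 1 or 2, adjusted p up to 0.092). In antigen presentation, Tap1, a peptide transporter, differed by -0.86 ± 0.17 (SE, adjusted p = 0.0188, not called without HSF1 arrays 1, 2 or 3 or RPA1 arrays 1 or 2, adjusted p up to 0.087) and H2-M3, a class I molecule, by 0.52 ± 0.06 (SE, adjusted p = 0.00566).

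Glycolytic genes were another group with calls on one side. Of 20, 8 were called higher with HSF1 shRNA and 0 higher with RPA1 shRNA by limma, with a median of 0.19 and unadjusted counts of 13 and 1. The 8 were 40% of the list, against 16.5% of all genes. They depended on single arrays, at 0 to 2 without 1 of the other 5 arrays, 13 without RPA1 array 3. Without RPA1 array 3 the 0 became 2. Pfkp, a phosphofructokinase, differed by 0.45 ± 0.07 (SE, adjusted p = 0.00906, not called without HSF1 array 2, adjusted p up to 0.051). Slc2a1, the glucose transporter, differed by 0.42 ± 0.11 (SE, adjusted p = 0.0474, not called without HSF1 arrays 1, 2 or 3 or RPA1 arrays 1 or 2, adjusted p up to 0.17). Of 21 other hypoxia-inducible genes 4 were higher with HSF1 shRNA (1 to 3 without 1 of the other 5 arrays, 10 without RPA1 array 3) and 1 higher with RPA1 shRNA (0 without 1 of the other 5 arrays, 1 without RPA1 array 3), 23.8% of the list against 16.5% of all genes. Mxi1, a Myc antagonist, differed by 0.83 ± 0.09 (SE, adjusted p = 0.00354). Of 41 respiratory chain genes 1 was called each way, Ndufb10 at 0.21 and Cycs at -0.24, both lost when an array other than RPA1 array 3 was left out. Calls were 4.88% of this list.

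Ribosome biogenesis leaned the other way. Of 32 genes 9 were called higher with RPA1 shRNA (2 to 5 without 1 of the other 5 arrays, 10 without RPA1 array 3) and 0 higher with HSF1 shRNA by limma, with unadjusted counts of 1 and 14 and a median of -0.13. Without RPA1 array 3 this 0 became 1. Myc, the transcription factor that drives growth genes, measured 11.24, 11.26 and 11.25 with HSF1 shRNA, 11.69, 11.64 and 11.90 with RPA1 shRNA and 10.82, 10.91 and 10.98 with control shRNA. Both groups were above control, RPA1 shRNA more so, with a difference of -0.49 ± 0.07 (SE, adjusted p = 0.00883). Nop2, a ribosomal RNA methyltransferase, differed by -0.37 ± 0.05 (SE, adjusted p = 0.00843). In this list array 3 was not the weaker RPA1 shRNA array: the list's median against control was 0.16, 0.17 and 0.41 in RPA1 arrays 1 to 3, and without array 3 the median difference was -0.01. Of 38 lysosomal genes 7 were higher with RPA1 shRNA (2 without 1 of the other 5 arrays, 18 without RPA1 array 3) and 2 higher with HSF1 shRNA (0 to 1 without 1 of the other 5 arrays, 1 without RPA1 array 3), 23.7% of the list against 16.5% of all genes. Gpnmb, a lysosomal glycoprotein, measured 9.16, 9.27 and 9.25 with HSF1 shRNA and 11.28, 11.52 and 10.55 with RPA1 shRNA. It differed by -1.89 ± 0.23 (SE, adjusted p = 0.00519). Tfeb, the regulator of lysosomal genes, differed by 0.42 ± 0.06 (SE, adjusted p = 0.00947, not called without HSF1 array 2, adjusted p up to 0.052).

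**Figure D4:**
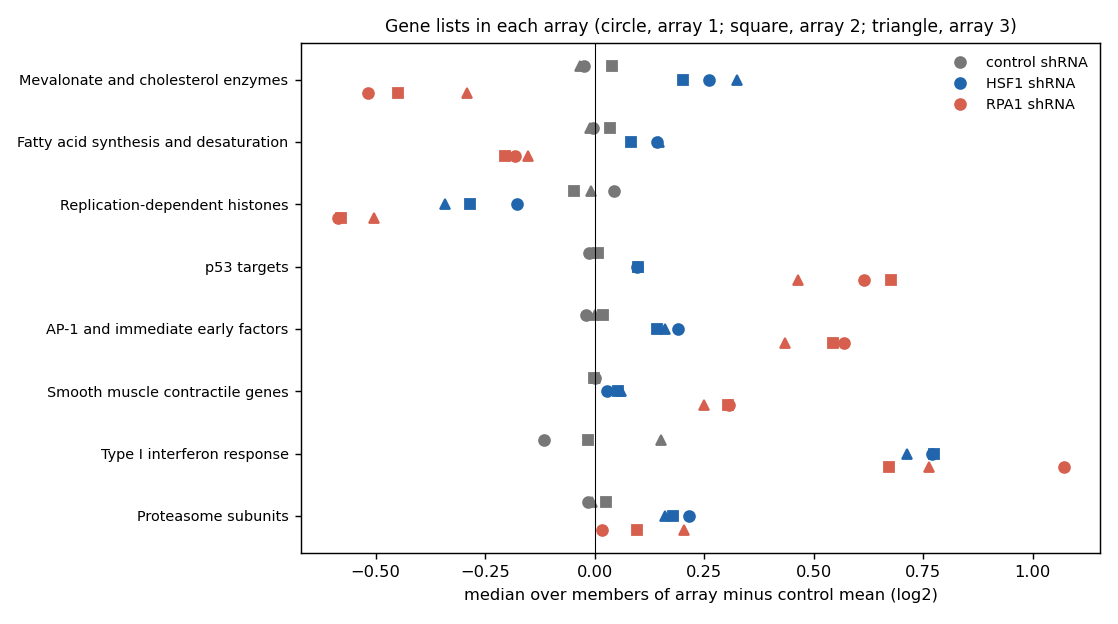
Median over the members of 8 lists of each array's signal minus the control mean (log2), with control arrays in grey, HSF1 shRNA in blue and RPA1 shRNA in orange. HSF1 and RPA1 shRNA lie on opposite sides of control for cholesterol enzymes, RPA1 shRNA array 3 (triangle) is closest to control of the 3 RPA1 arrays for p53 targets at 0.47, and the groups overlap for interferon genes and proteasome subunits.

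The 55 genes above control with HSF1 shRNA and near it with RPA1 shRNA were led by Lipg, endothelial lipase, which measured between 8.92 and 9.14 with HSF1 shRNA, 7.46, 7.31 and 7.70 with RPA1 shRNA and 7.49, 7.39 and 7.38 with control shRNA. The RPA1 shRNA arrays were level with control, and the difference was 1.53 ± 0.11 (SE, adjusted p = 0.00234). Ly6f, of the Ly6 surface protein family, differed by 1.09 ± 0.13 (SE, adjusted p = 0.00541), Orm1, an acute phase protein, by 0.94 ± 0.10 (SE, adjusted p = 0.00439). Cxcr2, a chemokine receptor that was dim in all arrays, differed by 0.80 ± 0.08 (SE, adjusted p = 0.0035). Itih2, which helps stabilise hyaluronan matrix, differed by 1.02 ± 0.21 (SE, adjusted p = 0.0199, not called without HSF1 arrays 1, 2 or 3 or RPA1 arrays 1 or 2, adjusted p up to 0.092).

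The 38 genes below control with HSF1 shRNA and near it with RPA1 shRNA were led by Atp6v0a1, a subunit of the proton pump of acidic organelles, which measured 10.47, 10.43 and 10.42 with HSF1 shRNA, 11.62, 11.71 and 11.38 with RPA1 shRNA and 11.41, 11.49 and 11.45 with control shRNA. The HSF1 shRNA arrays were tightly grouped about 1 log2 unit below the rest, and the difference was -1.13 ± 0.09 (SE, adjusted p = 0.00234). Nedd8, the ubiquitin-like modifier that activates cullin ligases, measured 10.38, 10.36 and 10.29 with HSF1 shRNA and 11.15, 11.28 and 11.09 with RPA1 shRNA. It differed by -0.83 ± 0.07 (SE, adjusted p = 0.00234). Kmt5a, which methylates histone H4, differed by -0.81 ± 0.08 (SE, adjusted p = 0.00318). Suclg2, a subunit of succinyl-CoA ligase, differed by -0.79 ± 0.06 (SE, adjusted p = 0.00234). Cntfr, the receptor for ciliary neurotrophic factor, differed by -1.08 ± 0.09 (SE, adjusted p = 0.00237). Slc35b4, a nucleotide sugar transporter, differed by -0.81 ± 0.09 (SE, adjusted p = 0.0038). Each of these 6 had RPA1 shRNA within 0.2 of control by the rule that chose them.

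Other genes besides Ubn1 had means on opposite sides of control, though not every side was called against it. Tor1b, a torsin ATPase of the nuclear envelope and endoplasmic reticulum, measured 9.34, 9.25 and 9.08 with HSF1 shRNA, 10.64, 10.79 and 10.42 with RPA1 shRNA and 10.28, 10.29 and 10.27 with control shRNA. All HSF1 shRNA arrays were below and all RPA1 shRNA arrays above the control arrays, and the difference was -1.40 ± 0.11 (SE, adjusted p = 0.00234). Slc35g1 differed by -1.24 ± 0.09 (SE, adjusted p = 0.00234), at -0.67 and 0.57 from control with HSF1 and RPA1 shRNA. Lgals2, a galectin, was higher with HSF1 shRNA by 2.83-fold (adjusted p = 0.00449), and its 0.37 from control with HSF1 shRNA was not called. Sod3, the extracellular superoxide dismutase, differed by 1.27 ± 0.23 (SE, adjusted p = 0.0139, not called without HSF1 arrays 1, 2 or 3 or RPA1 array 1, adjusted p up to 0.07), and its -0.43 from control with RPA1 shRNA was not called. Fhl1, a LIM domain protein of muscle, differed by -1.28 ± 0.20 (SE, adjusted p = 0.01, not called without HSF1 arrays 1 or 2 or RPA1 array 1, adjusted p up to 0.058), and its -0.45 from control with HSF1 shRNA was not called.

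Of 15 serpins 4 were called higher with HSF1 shRNA (1 to 2 without 1 of the other 5 arrays, 6 without RPA1 array 3) and 3 higher with RPA1 shRNA (0 to 2 without 1 of the other 5 arrays, 4 without RPA1 array 3), 46.7% of the list against 16.5% of all genes. Serping1, the C1 inhibitor of the complement system, measured 10.14, 10.02 and 9.91 with HSF1 shRNA and 8.67, 8.78 and 8.80 with RPA1 shRNA. It differed by 1.27 ± 0.07 (SE, adjusted p = 0.00206), while Serpinb2, the plasminogen activator inhibitor of type 2, differed by -1.01 ± 0.15 (SE, adjusted p = 0.00947, not called without HSF1 arrays 1 or 2 or RPA1 array 1, adjusted p up to 0.054). Of 17 BCL2 family genes 3 were higher with HSF1 shRNA (1 to 2 without 1 of the other 5 arrays, 6 without RPA1 array 3) and 1 higher with RPA1 shRNA (0 without 1 of the other 5 arrays, 2 without RPA1 array 3), 23.5% of the list against 16.5% of all genes. Bmf, a death-promoting BCL2 relative, differed by 0.79 ± 0.05 (SE, adjusted p = 0.00223). Of 29 cornified envelope genes 1 was called higher with HSF1 shRNA (1 without 1 of the other 5 arrays, 1 without RPA1 array 3) and 4 higher with RPA1 shRNA (3 without 1 of the other 5 arrays, 5 without RPA1 array 3). In the fit of all 6 arrays this was a share of 17.2%, near that of all genes. Sprr2g, a small proline-rich protein, differed by 0.65 ± 0.09 (SE, adjusted p = 0.00761). The late cornified envelope genes Lce1g, Lce1h and Lce1i, close copies that may share signal, differed by -1.47 ± 0.12 (SE, adjusted p = 0.00237), -1.09 ± 0.12 (SE, adjusted p = 0.00467) and -0.96 ± 0.11 (SE, adjusted p = 0.00467). Of 11 genes of the machinery that processes short hairpins 3 were higher with HSF1 shRNA (0 without 1 of the other 5 arrays, 3 without RPA1 array 3) and 2 higher with RPA1 shRNA (0 to 1 without 1 of the other 5 arrays, 2 without RPA1 array 3), 45.5% of the list. Drosha and Ago2 were called in opposite directions, at 0.45 and -0.44. Both calls were lost without any one of HSF1 arrays 1 to 3 or RPA1 arrays 1 and 2.

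Cell type markers were set beside these results. Of 10 fibroblast markers 4 were called higher with HSF1 shRNA (2 without 1 of the other 5 arrays, 7 without RPA1 array 3), namely Pdgfrb, Pdgfra, Col1a2 and Col1a1. Of these, Col1a1 differed by 0.48 ± 0.12 (SE, adjusted p = 0.0348, not called without HSF1 arrays 1, 2 or 3 or RPA1 arrays 1 or 2, adjusted p up to 0.13), and Col1a2 lost its call without the same arrays. The 4 calls were 40% of this list, against 16.5% of all genes. The median difference of the 10 was 0.45, against 0.02 for all genes, and 9 of the 10 were above 0. The exception was Vim, a bright marker chosen after its values were seen, at -0.02 ± 0.05 (SE, adjusted p = 0.829). Against control the list's median was -0.21 with HSF1 shRNA and -0.57 with RPA1 shRNA. The mean over these markers lay between 11.61 and 11.71 in the HSF1 shRNA arrays and between 11.14 and 11.33 in the RPA1 shRNA arrays. Of 7 markers of macrophages and other blood cells 1 was called, Cd68, a lysosomal glycoprotein, at -1.58 ± 0.18 (SE, adjusted p = 0.00476). The pan-leukocyte marker Ptprc, chosen likewise, differed by -0.01 ± 0.06 (SE, adjusted p = 0.955) at a mean signal of 6.08 with HSF1 shRNA and 6.09 with RPA1 shRNA, among the dim genes. The mean over the 7, Cd68 included, lay between 6.99 and 7.01 with HSF1 shRNA and between 7.19 and 7.24 with RPA1 shRNA. The median difference of the 7 was -0.016, so the list as a whole did not show the shift of Cd68. The 7 endothelial and 8 muscle markers held 0 calls by limma, with unadjusted counts of 0 and 0 and of 0 and 1. Each list held 1 call without RPA1 array 3. Epithelial, adipocyte and neural lists held 2, 1 and 1 (22.2%, 16.7% and 14.3%), and the call of Cd68 was 14.3% of its list. In bulk RNA, fewer cells of a type and less RNA per cell cannot be told apart, and the part of such markers in the matrix and lysosomal differences was not tested.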

How the data were processed

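RNA from 9 samples of adenovirus-infected fibroblasts (200 ng each) was measured on the Affymetrix Mouse Gene 1.0 ST array. The authors deposited 1 table of log2 signals per probe set, made by RMA in Partek 6.5 per the submitters' processing notes. The log2 scale was inferred from the range of the values, and the table gives no scanner intensities, so background correction could not be varied. RMA pulls dim probe sets together, which can understate differences of dim genes. Of 35557 rows 21789 had 1 gene symbol in the platform annotation, 1621 had several and 12147 were not listed and stayed unnamed. For the 999 genes with several rows the row with the highest mean over all 9 arrays was kept, leaving 19938 genes. Sample groups came from the labels, and 0 columns of values were unmapped.

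The direct comparison was fitted with limma 3.58.1 in R 4.3.3 on the 6 knockdown arrays (lmFit and eBayes, Benjamini-Hochberg adjustment over all 19938 genes). Differences from control came from a fit of all 9 arrays. On simulated data of the same size, with 50 genes changed at each of 4 sizes, the fit found 28% of those changed 1.25-fold, 82% at 1.5-fold, 92% at 2-fold and 100% at 3-fold, with 9 false among 160 calls. The simulated noise was independent between genes and arrays, and few genes were changed. A deviation shared by many genes, as in RPA1 array 3, was not simulated, so these rates may not hold for the real arrays. The number of arrays limits the precision.

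Genes were named by rule: the targeted genes where measured, the 10 largest called and non-overlapping differences in each direction, the 6 largest of each class of position against control, and per list the 4 largest called members, the largest called against the majority, and all members of lists of 8 or fewer. Ifit3, Hspa1a, Hspa8, Vim and Ptprc were named outside it, after their values were seen. Members and the 54 gene lists and 7 marker lists were chosen with earlier results of these data known. Promoters were those of RefSeq (GRCm38.p6), matched by symbol for 15614 genes. Alternatives covered the arrays in the fit, each array left out, a replicate block, 3 scalings, a filter on dim genes, moderation, array weights and the choice of row. Hsf1 was not analysed here.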

Additional observations from a re-analysis of the deposited data

How the results depend on the processing

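The count of called genes depended on single arrays and on how the spread was pooled. Leaving out 1 array gave 930 to 5670 called genes, 590 to 3257 of them higher with HSF1 shRNA and 337 to 2413 higher with RPA1 shRNA, and at 1.5-fold or more 406 to 1387 (204 to 794 and 167 to 593). The highest value of each range was the one without RPA1 array 3. Of 238 named called genes all kept their sign in these 6 fits, 92 kept their call in all 6 and 237 kept it without RPA1 array 3. Called genes were chosen on the same arrays that these fits reuse, so a kept sign was nearly fixed in advance. Without empirical Bayes moderation 676 genes were called (389 higher with HSF1 shRNA, 287 higher with RPA1 shRNA), 219 of them at 1.5-fold or more (128 and 91). With array weights, which weight each array by how well it matches its group, 6996 were called (4046 and 2950). Median centring raised the genes higher with RPA1 shRNA to 1968, and the share of calls higher with HSF1 shRNA was 47.8% there, 51.7% after quantile scaling and 51.8% after cyclic loess, against 60.7%. With all 9 arrays in the fit 4863 were called, 3282 of them shared. The cause of these differences was not tested.

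The replicate numbers of the labels did not pair the arrays: deviations of same-numbered arrays correlated at -0.16, 0.03 and -0.01. With the number as a replicate block 2219 genes were called, 1290 higher with HSF1 shRNA, and 2106 of them were shared with the fit without it. Pdgfd, which was not called in any setting, was the named gene whose sign turned, from -0.03 to 0.103 with array weights, and it ran from -0.128 to 0.158 over the fits without 1 array. Of 248 named genes 67 kept both direction and side of the threshold in all 17 settings. Signals near the floor of the array, as for Ces2a or Cxcr2, limit what can be seen of dim genes.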
